A study of Mus musculus with 3 samples.

Results

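The genes described here are Arg1, Nos2, Ido1, Acod1 and Il4i1, 5 of the 31062 gene rows of a CITE-seq data set of tumour-bearing mouse brain. They were chosen by symbol as enzymes of amino acid and itaconate metabolism in myeloid cells, and each symbol matched 1 row of the gene table. CITE-seq counts messenger RNA molecules and antibody-bound DNA tags in the same single cells by unique molecular identifiers (UMIs). The cells came from brains of female C57Bl/6 mice, 2 to 3 months old, that had received E0771 cells, a mouse mammary carcinoma line, through the carotid artery. Some of the animals received antibodies to VISTA and PD-L1 every other day from day 3, and the others received no such treatment. All suspensions came from perfused brains digested with enzymes and layered on a Percoll gradient, so the share of each cell type also reflects that preparation. Cells of 8 hashed samples were pooled in 1 capture with 35 surface antibodies and sequenced as 3 libraries for RNA, surface tags and hashtags. No source used here links a hashtag to a treatment or states that each hashtag is 1 animal, and the labels differ on how many brain hemispheres went into a sample. Treated and untreated samples are therefore not compared, and the 8 hashtag samples are numbered as the hashtags are. P-values measure at most the spread between hashtag samples.

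Arginase 1 (Arg1) cleaves arginine to ornithine and urea, whereas inducible nitric oxide synthase (Nos2) converts arginine to nitric oxide and citrulline, so the enzymes draw on the same substrate. Ido1 starts the breakdown of tryptophan to kynurenine. Acod1 makes itaconate from cis-aconitate, a Krebs cycle intermediate, and Il4i1 is a secreted oxidase that acts mainly on phenylalanine and other aromatic amino acids. In textbook accounts Arg1 marks macrophages exposed to interleukin-4 and tumour-associated macrophages, Nos2 and Acod1 follow interferon-gamma and Toll-like receptor signals, and Ido1 and Il4i1 are induced in maturing dendritic cells and in macrophages.

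On GRCm38.p6, Arg1 (ENSMUSG00000019987) lies at chr10:24915207-24927470, Nos2 (ENSMUSG00000020826) at chr11:78920787-78960226 and Ido1 (ENSMUSG00000031551) at chr8:24584133-24596952. Acod1 (ENSMUSG00000022126) lies at chr14:103047012-103056573 and Il4i1 (ENSMUSG00000074141) at chr7:44836288-44840809, and all 5 are protein-coding. The RefSeq promoter table held 2 of them, Acod1 and Il4i1, and the 250 bases before each start are shown because the results below turn on the classes in which these genes were high. Both are on the plus strand, at chr14:103046762-103047011 for Acod1 and chr7:44836038-44836287 for Il4i1, written 5′ to 3′, and capitals mark a match to the hypoxia response element core.
Acod1: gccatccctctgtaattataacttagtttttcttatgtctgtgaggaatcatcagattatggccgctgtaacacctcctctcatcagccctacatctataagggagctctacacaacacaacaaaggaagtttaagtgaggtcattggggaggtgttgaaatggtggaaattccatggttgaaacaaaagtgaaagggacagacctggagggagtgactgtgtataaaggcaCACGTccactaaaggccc
Il4i1: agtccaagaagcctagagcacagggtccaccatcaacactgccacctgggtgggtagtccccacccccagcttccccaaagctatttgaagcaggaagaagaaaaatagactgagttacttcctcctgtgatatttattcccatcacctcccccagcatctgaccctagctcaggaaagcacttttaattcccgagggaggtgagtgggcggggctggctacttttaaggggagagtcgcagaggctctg
The core was searched as ACGTG on both strands, and the match in Acod1 is on the reverse strand, 18 to 14 bases before the start. The same letters occur in 16.6% of 32851 promoter windows of this length. Also searched on both strands were TTGCNNCAA for C/EBP and TGANTCA for AP-1. These letters were not in either window, and they occur in 1.74% and 6.75% of the windows in that order.

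Of 12908 barcodes, 12334 passed the cell filter, and 9896 of these carried 1 hashtag, 1712 several and 726 none. No barcode occurred more than once in the list of barcodes. The hashtag samples held 100 to 2316 such single-hashtag cells with 4898690 to 125193000 RNA UMIs, and their median depth was 11244.5 to 67341 UMIs per cell. Cells were assigned by summed UMIs of marker lists per 10000 UMIs, with thresholds set after the marker distributions were seen, which placed 8337 cells and left 1559 unplaced. The gates gave 710 inflammatory monocytes, 645 macrophages and 336 double-gated cells that passed both lists, together called the 3 macrophage and monocyte gates (1691 cells, of which hashtag sample 1 held 14). The summed monocyte list stood at 12053 UMIs per 1000000 UMIs (CPM) in the monocytes and 2002 in the macrophages, and the macrophage list at 1701 and 21527. Cells with several hashtags were removed, but 16.7% of random pairs share a hashtag, so about 343 doublets of that kind are expected among the cells kept. Among barcodes passing each gate, 8.13% of monocytes, 16.8% of macrophages and 18.8% of double-gated cells had carried several hashtags before their removal. The largest gate, 4509 cells set by carcinoma markers, rested almost wholly on Krt8, at 378 CPM in 99.98% of cells, with Krt18 at 4.90 CPM, Epcam at 0.135, Krt19 at 0.0837, Krt7 at 0.0468 and Cldn4 at 0. These are called Krt8-gated cells, and they were the deepest, with a median of 84551 UMIs against 10402 in the macrophage and monocyte gates.

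Each of the 4 measurable enzyme genes had its own order across cell classes. By summed UMIs Arg1 was highest in double-gated cells, neutrophils and macrophages, apart from a small set of mixed dendritic cells described with Il4i1, Nos2 in double-gated cells, monocytes and endothelial cells, Acod1 in neutrophils and monocytes, and Il4i1 in mature dendritic cells. Ido1 was close to undetected throughout. Levels of a gene are compared between cell classes and not with levels of another gene.

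**Figure D1:**
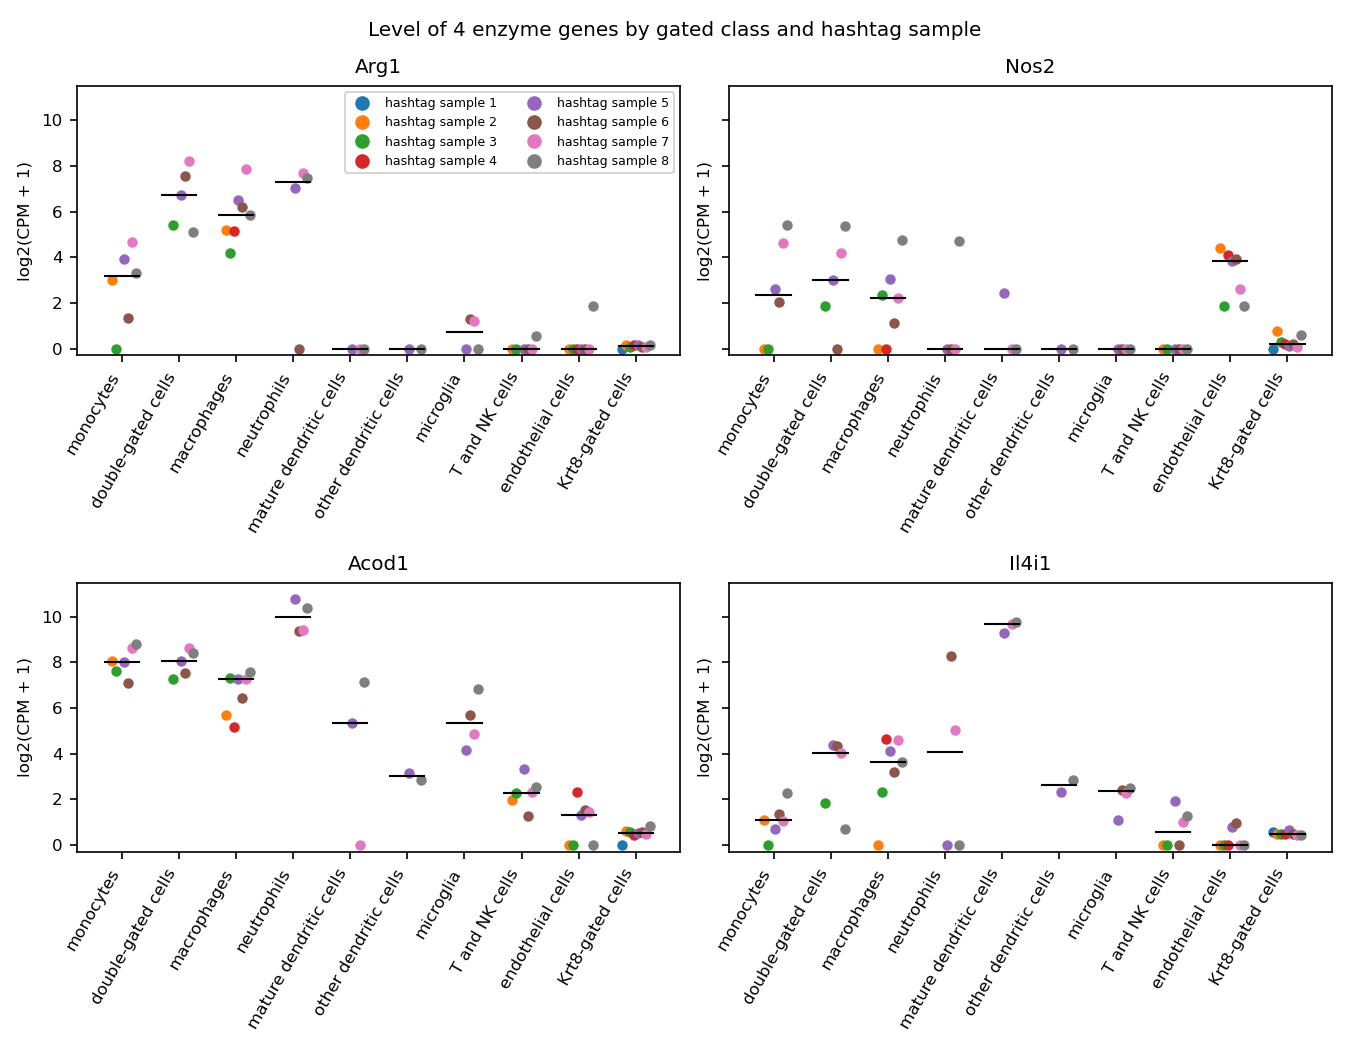
Level of Arg1, Nos2, Acod1 and Il4i1 as log2(CPM + 1) in 10 cell classes. Each dot is the summed cells of a hashtag sample with at least 20 cells (10 for dendritic cells and neutrophils), and the bar is the median. Il4i1 stands at 620 to 883 CPM in the 3 samples of mature dendritic cells, and no sample of monocytes exceeds 3.90 CPM.

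Arg1 in macrophages stood at 35.7, 16.9, 34.8, 89.6, 71.5, 229 and 57.4 CPM in hashtag samples 2 to 8. In monocytes it stood at 6.98, 0, 14.1, 1.57, 24.6 and 8.98 CPM in samples 2, 3, 5, 6, 7 and 8, and in double-gated cells at 41.8, 104, 190, 294 and 33.7 CPM in samples 3 and 5 to 8. Sample 7 was the highest in all 3 gates, and the macrophage level was above the monocyte level within each of the 6 samples that held both. The mean was 133 ± 110 CPM (SD, n = 5) in double-gated cells, 128 ± 90.7 (n = 4) in neutrophils and 76.5 ± 71.8 (n = 7) in macrophages, so these neighbours in the order overlapped. Under other gates, hashtag rules, depth limits and averaging, the double-gated median of 104 CPM ran from 32.8 to 112. That of macrophages, 57.4 CPM, ran from 46.9 to 66.6. The neutrophil value came from 6 of 91 cells, and as a mean of per-cell levels Arg1 stood at 32.6 CPM in neutrophils against 77.7 in macrophages and 113 in double-gated cells. The neutrophil gate did not exclude the macrophage list, which stood at 10887 CPM there, with Ms4a7 in 19.8% of cells. Of the barcodes passing that gate 12.1% had carried several hashtags. Whether its Arg1 came from neutrophils or from macrophage RNA in the same droplets was not tested. Microglia stood at 0, 1.44, 1.30 and 0 CPM in samples 5 to 8, with a UMI in 3 of 405 cells. Mature dendritic cells had no Arg1 UMI in 58 cells, which allows a share of cells with a UMI of up to 5.17%. T and NK cells, which served as the measure of free RNA in the droplets, had a UMI in 0.0972% of cells at a median depth of 4643 UMIs, against 14.7% of macrophages at 12700.

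The Arg1 signal came from few cells with many molecules. In the 3 gates 165 of 1691 cells (9.76%, exact 95% interval 8.38 to 11.3) held 1401 UMIs, 22 of those cells held at least 50% of them, and the highest cell held 77. Such intervals cover counting error only. The share of cells with an Arg1 UMI in samples 2 to 8 was 4.35%, 4.83%, 5.0%, 11.2%, 13%, 22.3% and 6.26%, and after each cell was thinned to 3000 UMIs it was 2.60%, 3.52%, 2.56%, 6.65%, 6.67%, 14.2% and 3.74%. Sample 7 remained the highest at equal depth, for which 46 shallower cells of the 1691 were left out.

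Nos2 in monocytes stood at 0, 0, 5.11, 3.14, 23.5 and 41.8 CPM in samples 2, 3, 5, 6, 7 and 8. In double-gated cells it stood at 2.61, 6.97, 0, 17.1 and 40.7 CPM in samples 3 and 5 to 8, and in macrophages at 0, 4.06, 0, 7.31, 1.16, 3.63 and 25.8 CPM in samples 2 to 8. Sample 8 was the highest in each gate and held 66 of the 100 Nos2-positive cells. Its share of positive cells was 14.3% against 0 to 7.14% in the other samples, and 5.49% after thinning. In the 3 gates the 313 Nos2 UMIs lay in 5.91% of cells, with at least 50% of them in 13 cells. Means over samples were 13.5 ± 16.5 CPM (SD, n = 5) in double-gated cells, 12.3 ± 16.9 (n = 6) in monocytes, 10.6 ± 7.11 (n = 7) in endothelial cells and 5.99 ± 9.10 (n = 7) in macrophages, and the spreads of all 4 overlapped. No Nos2 UMI was found in 405 microglia, which allows a share of cells with a UMI of up to 0.741%, or in 1029 T and NK cells, which allows up to 0.292%.

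Endothelial cells also held Nos2 in every sample with at least 20 of them. Nos2 stood there at 20.3, 2.61, 16.2, 13.4, 14.2, 5.11 and 2.62 CPM in samples 2 to 8, and 41 of 393 cells (10.4%) held a UMI. Sample 8, the highest in myeloid cells, was among the lowest in endothelial cells by CPM, but few molecules underlie that order. Samples 3 and 8 held 1 UMI each, in 1 of 42 and 1 of 31 cells. The exact interval of the sample 8 share, 0.0816% to 16.7%, covers the shares of samples 3 to 7 (2.38% to 14.9%) but not sample 2 (25%). Sample 8 is therefore not set apart from samples 3 to 7. After thinning to 3000 UMIs, samples 3, 4 and 8 had no positive endothelial cell.

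**Figure D2:**
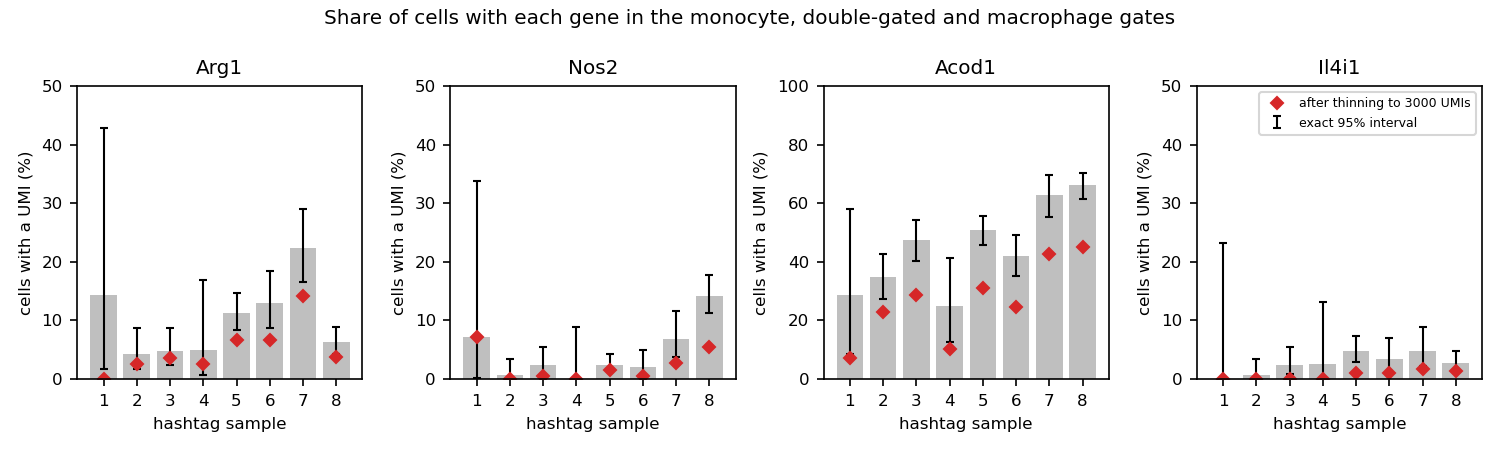
Percent of cells of the 3 macrophage and monocyte gates with at least 1 UMI of each gene, by hashtag sample 1 to 8. Bars across the points are exact 95% intervals and red diamonds are shares after thinning to 3000 UMIs per cell. Arg1 is highest in sample 7 (22.3%, 14.2% thinned) and Nos2 in sample 8 (14.3%, 5.49% thinned).

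Acod1 was detected across the myeloid classes, with a UMI in 78.0% of neutrophils (median depth 3034 UMIs), 52.5% of monocytes, 61.3% of double-gated cells and 47.9% of macrophages, against 1.75% of T and NK cells. In neutrophils it stood at 1767, 656, 684 and 1334 CPM in samples 5 to 8, and the median of 1009 CPM became 2168 without cells over 3 times the median depth. In monocytes it stood at 266, 194, 255, 138, 400 and 442 CPM in samples 2, 3, 5, 6, 7 and 8. In macrophages the values were 50.8, 158, 34.8, 153, 86.7, 153 and 188 CPM in samples 2 to 8. The neutrophil values lay above all monocyte and macrophage values, and the monocyte and macrophage ranges overlapped between samples although the monocytes were higher within each sample. Microglia stood lower, at 16.7, 51.2, 28.5 and 113 CPM in samples 5 to 8, with a UMI in 11.1% of cells. Of their 269 UMIs at least 50% lay in 6 cells. Their median of 39.8 CPM ran from 4.16 to 52.7 under other gates, hashtag rules, depth limits and averaging, so the microglial level was not stable. After thinning, the share of positive cells in the 3 gates still ran from 7.14% in sample 1 and 10.3% in sample 4 to 42.6% in sample 7 and 45.1% in sample 8.

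Il4i1 was highest in mature dendritic cells. In mature dendritic cells it stood at 620, 816 and 883 CPM in samples 5, 7 and 8, and 49 of 58 cells (84.5%) held a UMI. In macrophages it stood at 0, 4.06, 23.9, 16.5, 8.14, 23.6 and 11.3 CPM in samples 2 to 8, with a UMI in 5.12% of cells. The lowest mature dendritic cell sample was therefore above the highest macrophage sample. In monocytes the highest sample stood at 3.90 CPM and 1.13% of cells held a UMI, against 0.292% of T and NK cells. A further 43 cells passed the mature dendritic cell list and also the macrophage or monocyte list, with Il4i1 at 229 CPM and Arg1 at 324 CPM. Their median depth was 20856 UMIs against 7669.5 in mature dendritic cells, and 30.6% of barcodes in that gate had carried several hashtags before removal. Without cells over 3 times the median depth, the median Il4i1 level over macrophage samples moved from 11.3 to 1.01 CPM, so the macrophage value rested on deep cells.

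Ido1 was found as 6 UMIs in 6 cells of the 3 gates, 5 of them monocytes. No UMI was found in 645 macrophages, which allows a share of cells with a UMI of up to 0.465%, and 1 of 58 mature dendritic cells held a UMI (1.72%, exact 95% interval 0.0436 to 9.24). In the Krt8-gated cells, the deepest class, 0 of 4509 cells held a UMI, which allows a share of such cells of up to 0.0665%. Microglia held 2 UMIs, both in 1 cell. Differences in Ido1 between classes were not detectable at this depth, and the gene is not compared further.

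Macrophages were compared with inflammatory monocytes within hashtag samples by summing the UMIs of each class in each sample and fitting edgeR's quasi-likelihood model with the hashtag sample as a block, with Benjamini-Hochberg adjustment over all genes tested. Across the 6 samples with at least 20 cells of both classes, 46.5% of 7377 genes passed an adjusted p of 0.05 (22.7% higher and 23.8% lower in macrophages). Arg1 was higher in macrophages, at 83.4 ± 76.0 against 9.36 ± 9.03 CPM (SD, n = 6), a log2 fold change of 2.81 (SE 0.20, adjusted p 2.59e-08), in 6 of 6 samples. Acod1 was lower, at 131 ± 51.6 against 283 ± 118 CPM, a log2 fold change of -1.23 (SE 0.17, adjusted p 3.53e-05), and was lower in 6 of 6 samples. Both members that passed the filter on low counts were thus called, in opposite directions. Nos2, Ido1 and Il4i1 did not pass that filter. With no filter Il4i1 was higher in macrophages by 2.42 on the log2 scale, in 5 of 6 samples. Nos2 had a log2 fold change of -0.85 there, lower in 3 samples and higher in 2. Its levels were 6.99 ± 9.54 against 12.3 ± 16.9 CPM (SD, n = 6). The p-values of fits with no filter took little account of the spread between samples, so neither gene is called.

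The arginine and polyamine list held genes that moved both ways between macrophages and monocytes. Of its 14 tested genes 4 were higher and 4 lower in macrophages (28.6% each, near the 22.7% and 23.8% of all genes), with a median log2 fold change of 0.03, equal to the 0.03 of all genes. Gatm, which makes the creatine precursor guanidinoacetate from arginine, stood at 138 against 23.9 CPM (log2 2.27), and Srm, spermidine synthase, was higher by 1.34. Arg2, the mitochondrial arginase, went against Arg1 at 10.7 against 47.0 CPM (log2 -2.19), and Ass1, which rebuilds arginine from citrulline, was lower (-0.64). Of 8 nitric oxide genes 4 were lower, among them Gch1 (-1.71), which starts synthesis of the cofactor tetrahydrobiopterin, and 3 were higher, among them Qdpr (1.26), which recycles that cofactor.

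Most tested genes of the interferon-gamma and NF-kB lists were lower in macrophages. The interferon-gamma list had 11 of 14 genes lower and the other 3 not passing, with a median of -0.65, and Cxcl10, a T cell chemoattractant, was the lowest of its named genes (-1.84). The NF-kB and Toll-like receptor list had 10 of 12 lower with a median of -0.81, including Il6 (-4.52), Ptgs2, the inducible cyclooxygenase (-1.69), and Il1b (-1.47). The hypoxia and glycolysis list had 7 of 12 lower with a median of -0.49, including Hif1a (-1.26). The itaconate and succinate list had 5 of 16 higher and 1 lower with a median of 0.23, with Hmox1, haem oxygenase, higher by 1.18. On the tryptophan list 5 of 8 were lower and 1 higher, and Kmo, which acts on kynurenine, was lower (-1.55). The interleukin-4 and STAT6 list had 2 of 7 lower (28.6%, near the 23.8% of all genes), of which Il13ra1 stood at -1.65.

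Arg1, Acod1 and Il4i1, the 3 members tested, were lower by summed UMIs in microglia than in the 3 macrophage and monocyte gates of the same samples. Arg1 and Il4i1 reached the level of the low-count filter in no microglia sample and so were tested through the other side, which fixed their direction, whereas Acod1 reached it in all samples of both sides. Samples 5 to 8 held enough cells of both, and 56.6% of 8993 genes passed (28.1% lower in microglia). Arg1 stood at 0, 1.44, 1.30 and 0 CPM in microglia against 70.0, 83.4, 171 and 31.98 in macrophages and monocytes, a log2 fold change of -6.96 (SE 0.32, adjusted p 8.85e-10 by edgeR) with 4 of 4 samples lower. Acod1 stood at 16.7, 51.2, 28.5 and 113 against 205, 120, 297 and 328 CPM, a log2 fold change of -2.50 (SE 0.30, adjusted p 5.12e-06 by edgeR) with 4 of 4 samples lower. The microglial values did not overlap those of the 3 gates summed for either gene, although Acod1 in macrophages alone, at 86.7 CPM in sample 6, lay below microglia of sample 8. Il4i1 stood at 3.51 ± 1.63 against 10.3 ± 3.60 CPM (SD, n = 4), a log2 fold change of -1.80 (SE 0.40, adjusted p 0.00155 by edgeR), and was lower in 4 of 4 samples. Nos2 had no UMI in microglia and 303 in the macrophages and monocytes of these samples, which makes it at least 21.6-fold lower when 3 counts over the whole group are taken as the floor. All 12 hypoxia and glycolysis genes tested were lower in microglia (median -1.53 against 0.05 for all genes), among them Vegfa (-3.36), and 11 of 14 interferon-gamma genes were lower, among them Cxcl9 (-4.01). Arg2 stood at 0.279 against 27.1 CPM and Ass1 was lower (-3.42), whereas Gatm was higher (1.29) and Ddah2, which clears an endogenous nitric oxide synthase inhibitor, was higher by 3.70.

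Krt8-gated cells held little of any member, and the members tested passed the filter through the macrophage and monocyte side, since at most 1 of 7 Krt8-gated samples reached its level. In samples 2 to 8 Arg1 stood at 0.113, 0.0631, 0.102, 0.124, 0.0621, 0.0338 and 0.120 CPM there, against 28.5, 18.5, 24.6, 70.0, 83.4, 171 and 31.98 in the macrophages and monocytes. The fit gave -9.55 for Arg1 (SE 0.25, adjusted p 6.04e-15 by edgeR, lower in 7 of 7), -8.76 for Acod1 (SE 0.17, adjusted p 1.63e-16, 7 of 7), -4.43 for Il4i1 (SE 0.37, adjusted p 1.32e-08, 7 of 7) and -5.08 for Nos2 (SE 0.66, adjusted p 2.55e-06, lower in 5 and higher in 2 of 7). In this comparison 85.7% of 12086 genes passed (50.1% higher and 35.6% lower), so a call alone separates a gene little from the rest. The samples in which Nos2 was higher in Krt8-gated cells were sample 2, at 0.702 against 0.571 CPM, and sample 4, at 0.136 against 0. At their great depth 3.95% of Krt8-gated cells held an Acod1 UMI, 3.44% an Il4i1 UMI, 1.29% a Nos2 UMI and 0.776% an Arg1 UMI. The pooled CPM of Arg1, Acod1 and Il4i1 there (0.0862, 0.493 and 0.419) lay below that of T and NK cells (0.160, 5.27 and 1.44). By share of cells with a UMI the order was reversed, at 0.0972%, 1.75% and 0.292% of T and NK cells. CPM divides by depth, and the median depths were 84551 and 4643 UMIs, so the CPM order does not place these genes below background. Whether the UMIs in Krt8-gated cells were free RNA was not tested. For Nos2, at 0.236 CPM, T and NK cells give only the floor of 0.479 CPM from 3 counts.

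Other nitric oxide synthases, but not the other arginase, were higher in Krt8-gated cells. Nos1, the neuronal nitric oxide synthase, stood at 43.6 ± 7.18 CPM in Krt8-gated cells against 0.933 ± 0.749 in macrophages and monocytes (SD, n = 7), a log2 fold change of 4.90 with 7 of 7 samples higher, and Nos3, the endothelial form, was higher by 2.99. Arg2 stood at 0.0407 against 23.6 CPM and Kmo was lower by a log2 fold change of -8.96. All 14 interferon-gamma genes and all 8 interleukin-4 and STAT6 genes tested were lower in Krt8-gated cells, and of 14 hypoxia and glycolysis genes 7 were higher (50%, near the 50.1% of all genes), with Adm (4.17) and Egln3 (3.50) the most so. Another 3 were lower, Hilpda (-1.25), Vegfa (-0.96) and Bnip3 (-0.42).

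Mature dendritic cells, defined by Ccr7, Fscn1 and related markers, were compared with other dendritic cells in samples 5 and 8, where 24 and 11 mature cells met 21 and 22 others. Il4i1 stood at 620 and 883 CPM in the mature cells against 4.02 and 6.29 CPM, and was higher in 2 of 2 samples. The log2 fold change was 7.10 (SE 0.51). With only 2 samples, its edgeR adjusted p of 8.26e-41 says little of the spread between samples. In this comparison 34.4% of 3286 genes passed (18.7% higher). Acod1 did not pass the filter, at a mean of 89.0 against 7.16 CPM, and with no filter its log2 fold change was 3.39. All 13 Acod1 UMIs of the mature cells in sample 8 lay in 1 of 11 cells, and after thinning 0 of 53 mature cells held one. Il4i1 reached the level of the filter in no sample of the other dendritic cells. Arg1 had no UMI on either side. Of 10 NF-kB and Toll-like receptor genes 7 were higher and 1 lower (median 1.39 against -0.08 for all genes). Among them Tnf was higher by 3.92 and Il12b, a subunit of interleukin-12, stood at 169 CPM against 0. Ass1 stood at 527 against 139 CPM (log2 1.99), Gatm was lower (-3.35), and Kmo was found at 0 against 72.9 CPM. DESeq2 called 215 genes where edgeR called 1130, and Il4i1 was among the genes called by both.

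The per-cell pairing of the enzymes was examined in the 1691 cells of the 3 gates, since Arg1 and Nos2 are often described as exclusive states. Arg1 and Nos2 were found together in 17 cells, Arg1 alone in 148, Nos2 alone in 83 and neither in 1443. The number expected if the genes fell independently within each hashtag sample was 9.11, or 10.8 when cells were also divided by depth into 3 classes per sample. The joint cells numbered 1, 4, 5 and 7 in samples 1, 5, 7 and 8, against 1.69, 3.19 and 4.65 expected in the last 3 of these, and the other samples had none. Co-detection was therefore not below independence, with a Mantel-Haenszel odds ratio over hashtag samples of 2.36, or 1.964 with depth classes. At 3000 UMIs per cell 4 joint cells were left against 2.15 expected, and the odds ratio of 2.08 moved between 0.798 and 2.70 as each sample was left out in turn. Too few samples held 5 positive cells of each gene for the planned test, so these values have no p.

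With more molecules of each gene required, few joint cells were left and few were expected. With at least 2 UMIs of each gene, 6 cells held both against 3.22 expected within hashtag samples. With at least 5 UMIs, 80 cells passed for Arg1, 16 for Nos2 and 1 for both, against 0.731 expected. With at least 10 UMIs, 47 passed for Arg1, 8 for Nos2 and none for both, against 0.157 expected, where 43 of the 47 and all 8 had no UMI of the other gene. The joint cells had a median depth of 14562 UMIs, against 15268.5 for Arg1 alone, 12027 for Nos2 alone and 10061 for neither, and the part of depth and of same-hashtag doublets in the joint count was not tested.

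**Figure D3:**
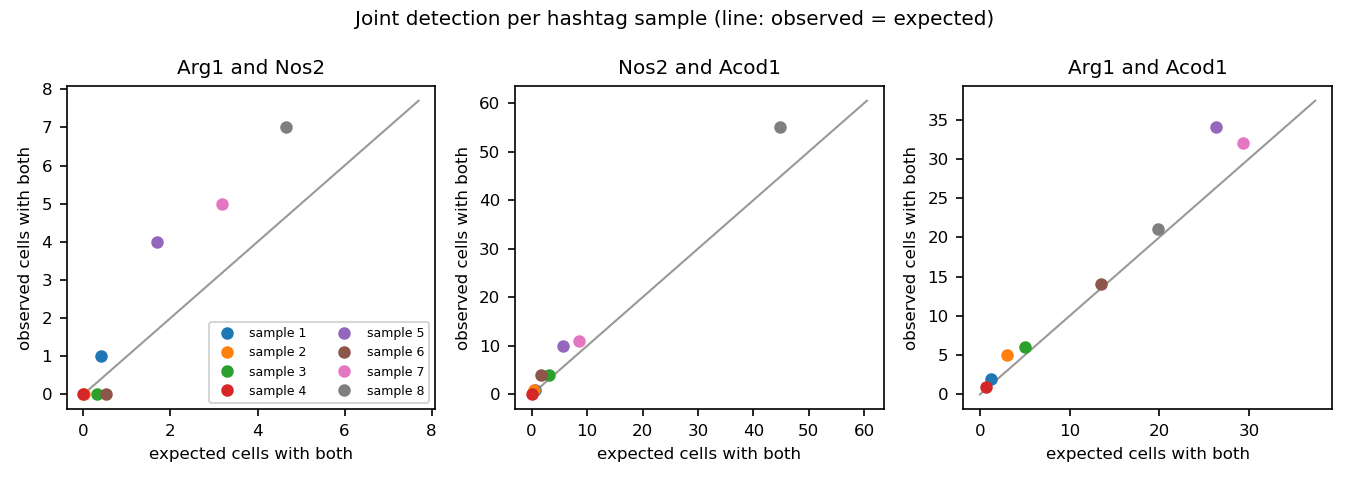
Cells of the 3 gates with a UMI of both genes (observed) against the number expected under independence within 3 depth classes, for each hashtag sample and for the pairs Arg1 and Nos2, Nos2 and Acod1, and Arg1 and Acod1. Over all samples 17 cells held Arg1 and Nos2 against 10.8 expected, 86 held Nos2 and Acod1 against 64.9, and 115 held Arg1 and Acod1 against 98.9.

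Acod1 was found more often in cells with Nos2 or Arg1 than in cells without. Of 100 Nos2-positive cells 86 (86.0%) held Acod1, against 50.4% of Nos2-negative cells, with 61.5 expected and an odds ratio of 4.24 (3.68 with depth classes). All 35 Nos2-positive monocytes held Acod1, where 22.9 were expected. Of 165 Arg1-positive cells 115 (69.7%) held Acod1, against 50.7% of Arg1-negative cells, with 88.5 expected and an odds ratio of 2.21 (1.73 with depth classes). The difference between these pairs was not tested. For Arg1 and Acod1 the planned test over 6 samples at 3000 UMIs gave a mean log2 odds ratio of 0.48 (SD 1.06), above 0 in 4 of 6 samples, with p 0.344 in an exact two-sided sign-flip permutation test whose smallest possible p is 0.03125. Without thinning, the mean log2 of observed over expected joint cells was 0.25 (SD 0.23), above 0 in 6 of 6 samples, at the smallest possible p of 0.03125 in the same exact test, or 0.09375 adjusted over the 3 pairs tested. The other pairs tested were Arg1 with Il4i1 (0.03, SD 0.93, exact p 0.969) and Acod1 with Il4i1 (0.24, SD 0.40, exact p 0.219, adjusted 0.328). None of the 3 tested pairs passed after adjustment. The smallest p becomes 0.09375 when 1 pair alone reaches it, so Arg1 with Acod1 could not have passed alone, and nothing is concluded from its failure. Cells with a UMI of at least 2 of the 5 genes numbered 51 of 710 monocytes, 72 of 336 double-gated cells, 100 of 645 macrophages and 15 of 4509 Krt8-gated cells.

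What else differed in cells that held an enzyme was examined by splitting the 3 gates on the gene and comparing the sides within hashtag samples. Cells with an Arg1 UMI after thinning were set against cells without, and samples 5 and 7 had at least 20 cells of both. There 1.63% of 7597 genes passed (0.882% higher). With at least 10 cells a side, a rule added after the data were seen, samples 5 to 8 entered and 1.26% of 7470 genes passed (0.790% higher, 59 genes, and 0.469% lower, 35 genes). Arg1 itself defined the sides and is not a result.

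The other members did not separate Arg1-positive from Arg1-negative cells. In samples 5 to 8 Acod1 stood at 276, 85.6, 284 and 380 CPM in positive cells and at 198, 122, 299 and 322 in negative cells, higher in 2 and lower in 2. Nos2 stood at 6.52, 0, 15.8 and 60.9 against 6.64, 1.44, 13.4 and 34.7 CPM, and Il4i1 at 13.04, 3.89, 6.77 and 0 against 12.5, 9.75, 15.2 and 5.95 CPM. The log2 fold changes were 0.10 for Acod1 (SE 0.14, adjusted p 0.900), 0.44 for Nos2 (SE 0.34, adjusted p 0.780) and -0.75 for Il4i1 (SE 0.49, adjusted p 0.687), all by edgeR. With samples 5 and 7 alone they were 0.21, 0.14 and -0.45 (adjusted p 0.728, 0.973 and 0.875). None of the 3 thus passed, and their unadjusted edgeR p values over samples 5 to 8 were 0.470, 0.218 and 0.147. This does not show that the sides are alike, since 13 to 27 positive cells a sample give wide errors.

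Arg1-positive cells carried more RNA of hypoxia and glycolysis genes, of which 6 of 12 were higher and the rest did not pass (median 0.59 against -0.01 for all genes). Bnip3, a hypoxia-induced mitophagy receptor, stood at 100 ± 15.3 against 44.4 ± 21.7 CPM (SD, n = 4; log2 1.27, SE 0.22), and Vegfa, the vascular growth factor, at 119 ± 40.5 against 55.5 ± 27.4 (log2 1.13). The glycolytic genes Pfkl (0.89), Pgk1 (0.75), Eno1 (0.51) and Ldha (0.48) were also higher, each in 4 of 4 samples. Outside the lists Spp1, osteopontin, stood at 4418 ± 2118 against 615 ± 251 CPM (log2 2.82, adjusted p 2.28e-07 by edgeR), and Ctsl, cathepsin L, at 1009 ± 153 against 416 ± 147 (1.32). Ccl24, a chemokine, was higher by 4.18, the only 1 of 8 interleukin-4 and STAT6 genes to pass, with a list median of 0.09. In samples 5 and 7 alone none of those 8 passed, and among cells of the macrophage list none of 6 did. Gsr, glutathione reductase, was lower (-0.87), the only 1 of 8 nitric oxide genes to pass. Ccl8, a monocyte chemokine, stood at 3.23 against 176 CPM. The class II genes H2-Eb1, H2-Ab1 and H2-Aa and the invariant chain gene Cd74 were picked after their values were seen and stand for no list. They were lower, H2-Eb1 by a log2 fold change of -0.98 (adjusted p 0.000198 by edgeR), H2-Ab1 by -0.82, H2-Aa by -0.74 and Cd74 by -0.67, each in 4 of 4 samples. In samples 5 and 7 alone 3 of 14 arginine and polyamine genes passed as higher, Gatm at 147 against 69.9 CPM (1.06), Odc1, ornithine decarboxylase, at 225 against 116 CPM (0.96) and the arginine exporter subunit Slc7a7 (0.88). Over samples 5 to 8 none of the 14 passed, with a median of 0.11, and none passed among cells of the macrophage list.

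The sides also differed in which gate their cells came from. The macrophage gate supplied 63.0%, 53.8%, 42.3% and 47.1% of Arg1-positive cells in samples 5 to 8 against 37.7%, 49.5%, 31.2% and 28.1% of negative cells, and the monocyte gate 3.70%, 7.69%, 15.4% and 23.5% against 41.95%, 33.0%, 51.6% and 50.2%. The summed monocyte list was lower in positive cells in 4 of 4 samples, at 4771 to 6164 against 6365 to 7927 CPM. The median depth was higher in 4 of 4 samples, at 12018 to 13778 against 9913 to 11359.5 UMIs. Restricted to cells that passed the macrophage list, 7 of 12 hypoxia and glycolysis genes were still higher (median 0.80 against -0.01), Vegfa by 1.54 and Bnip3 by 1.30, and H2-Eb1 was lower by a log2 fold change of -1.21, with 0.784% of 6633 genes called. Spp1 was higher there by 2.57. Among surface tags, CD38 took 20.2 ± 4.58 of 1000 tag counts in positive and 12.8 ± 4.20 in negative cells (SD, n = 4, higher in 4 of 4), and CD11c 13.9 ± 3.04 against 18.0 ± 2.65 (lower in 4 of 4). CD45, CD25, CD8a and CD49d were also lower in 4 of 4. The tag for class II proteins (I-A and I-E) took 198 ± 127 against 197 ± 67.4 (higher in 2 of 4), and in samples 5 and 7 alone it was higher in both, at 296 against 235. The part of depth in these differences was not tested.

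Sample 5 weighed most on the Arg1 split. Without it 43 genes passed where 94 had, 2 hypoxia and glycolysis genes where 6 had, and the Acod1 log2 fold change was -0.043. Without the hashtag block 11 genes passed and no hypoxia or glycolysis gene did (635 genes at an unadjusted p under 0.05 by edgeR).

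Nos2-positive cells could be split after thinning only in sample 8, with 25 positive and 430 negative cells. Acod1 stood there at 735 against 302 CPM, 2.43 times as high, and Arg1 at 102 against 28.2 CPM, with no test for a single sample. A split on all UMIs with at least 10 cells a side, added after the data were seen, held samples 5, 7 and 8 with 10, 13 and 66 positive cells, and 2.68% of 7999 genes passed (2.18% higher, 174 genes, and 0.5% lower, 40 genes).

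Acod1 was higher in Nos2-positive cells, at 291, 505 and 509 against 202, 276 and 291 CPM in samples 5, 7 and 8. The log2 fold change was 0.81 (SE 0.13, adjusted p 1.43e-05 by edgeR, 3 of 3 samples), and without the hashtag block it was 0.85 with an adjusted p of 0.138. Arg1 stood at 132, 144 and 49.97 against 67.7, 173 and 28.3 CPM, a log2 fold change of 0.52 (SE 0.20, adjusted p 0.196 by edgeR, 2 of 3 samples higher). Without sample 7 the Arg1 value was 0.93 (adjusted p 0.0183 by edgeR). Il4i1 stood at 47.6, 72.2 and 1.85 against 11.1, 7.96 and 6.46 CPM, a log2 fold change of 1.63 (SE 0.49, adjusted p 0.0529 by edgeR, 2 of 3 samples higher), and without sample 8 it was 2.69 (adjusted p 1.75e-05 by edgeR).

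The hypoxia and glycolysis list was higher in Nos2-positive cells as well, with 11 of 13 genes passing and a median of 0.98 against -0.01 for all genes. Bnip3 stood at 156 ± 33.9 against 45.0 ± 13.2 CPM (SD, n = 3; log2 1.79, SE 0.19, adjusted p 6.33e-10 by edgeR). Egln3, an oxygen-sensing hydroxylase, was higher by 1.89, Ero1l, an oxidase of protein folding, by 1.54, and Ndrg1 by 1.16. Of these, Ero1l and Ndrg1 did not pass in the Arg1 split (0.21 and -0.49), and the difference between the splits was not tested. Of 14 interferon-gamma genes 3 were higher with a list median of 0.33: Cxcl9 at 2740 ± 1755 against 1055 ± 597 CPM (log2 1.32), Gbp2, an interferon-induced GTPase (0.68), and Socs1, a feedback inhibitor of interferon signalling (0.62). Ass1, which supplies arginine to nitric oxide synthase, stood at 429 against 270 CPM (0.70), the only 1 of 15 arginine and polyamine genes to pass. Of 8 nitric oxide genes Sod2, mitochondrial superoxide dismutase, was higher, at 711 against 356 CPM (1.04), Gsr was lower (-0.99), and the rest did not pass. The amino acid transporter genes Slc7a8 (0.79) and Slc3a2 (0.50) were the only 2 of 10 tryptophan list genes to pass. Hmox1 (0.97) was the only 1 of 16 itaconate and succinate genes, and Ptgs2 (0.58) the only 1 of 12 NF-kB and Toll-like receptor genes. The tryptophan, itaconate and NF-kB list medians were -0.11, -0.12 and -0.05, against -0.01 for all genes. Outside the lists Inhba, an activin subunit (2.98), Saa3, an acute-phase protein (2.31), Upp1, uridine phosphorylase (2.30), and Ccl5 (1.65) were higher, and Klrd1 was lower (-3.23). H2-Ab1, lower in Arg1-positive cells, was higher here by 0.35 (adjusted p 0.0378 by edgeR, 3 of 3 samples), while H2-Eb1 at 0.30 did not pass (adjusted p 0.162).

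**Figure D4:**
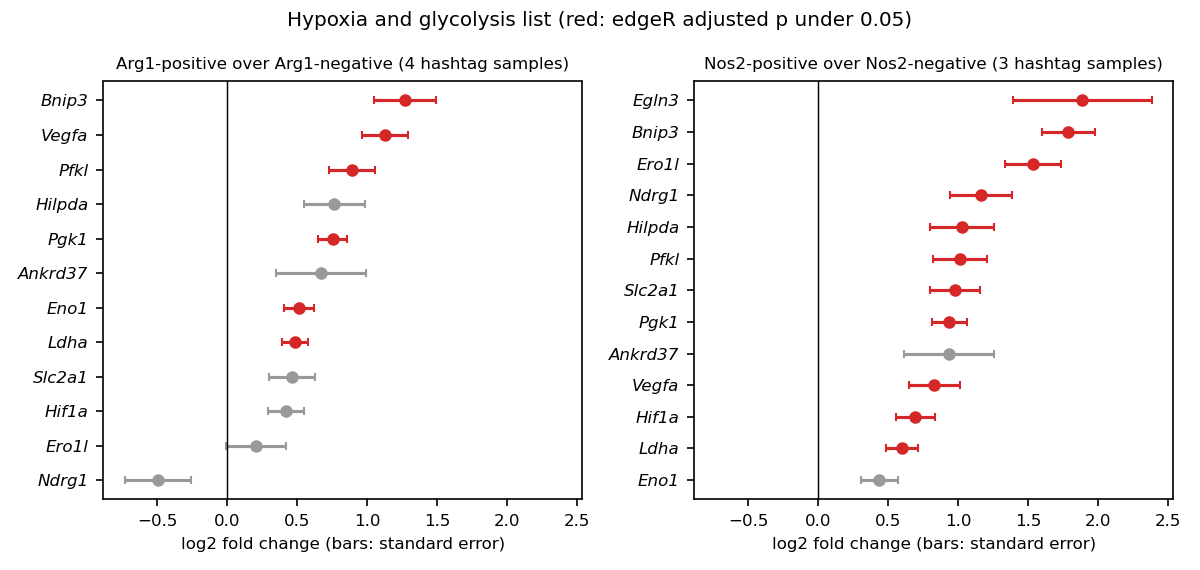
Log2 fold change ± SE of each tested hypoxia and glycolysis gene between cells with and without Arg1 (4 hashtag samples) and between cells with and without Nos2 (3 hashtag samples), by edgeR, with genes at an adjusted p under 0.05 in red. In the Arg1 split 6 of 12 genes are red and in the Nos2 split 11 of 13, with Bnip3 at 1.27 and 1.79.

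Markers of other cells moved with the Nos2 split. The summed endothelial list stood at 132, 72.2 and 103 CPM in Nos2-positive cells of samples 5, 7 and 8 against 40.9, 57.4 and 60.8 in negative cells. The mature dendritic cell list stood at 291, 119 and 69.4 against 79.4, 112 and 59.2 CPM. Median depth was 15054.5, 12062 and 11793.5 against 10005.5, 9979 and 10614 UMIs. All 3 measures were higher in the positive cells of every sample, most so in sample 5, and their part in the differences was not tested. Among surface tags, CD86, a co-stimulatory molecule, took 21.1 ± 4.82 of 1000 tag counts in Nos2-positive cells and 14.8 ± 3.04 in negative cells (SD, n = 3), and PD-L1 7.53 ± 5.26 against 4.71 ± 3.69, both higher in 3 of 3 samples. CD103 was also higher in 3 of 3, at 1.03 ± 0.696 against 0.523 ± 0.0962. CD11b was lower in 3 of 3, at 86.4 ± 13.8 against 106 ± 1.29. Other tags were lower in 3 of 3 as well, among them CD45, CD4, F4-80 and CX3CR1, so that direction is not particular to CD11b. Tags are shares of a total, in which SIRPa took 30.4 ± 41.8 against 6.66 ± 1.28 (higher in 1 of 3). PD-L1 is a target of the treatment, and no source used here says which samples were treated. Without sample 5 86 genes passed in the Nos2 split and without sample 8 107, against 214 with all 3 samples, DESeq2 called 89, and without the hashtag block 29 genes and 4 hypoxia and glycolysis genes passed.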

How the data were processed

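The deposited tables hold raw counts, UMIs per gene or tag and barcode, per the file headers and the values. The submitters' processing notes name Cell Ranger 3.1, Seurat 3.1.1 and mm10, with no roles given. Cells had to show 500 genes or more, with mitochondrial genes giving no more than 15% of UMIs. Hashtags were called with HTODemux (Seurat 5.3.0, quantile 0.99) and several-hashtag barcodes removed, with no transcript-based doublet caller run. Cells were gated on marker UMIs per 10000, with lists of some other lineages as exclusions. The threshold was at least 50 for monocyte, macrophage, microglia, neutrophil and endothelial lists. It was 15 for mature dendritic, 10 for other dendritic and 1 for carcinoma cells. The neutrophil gate did not exclude the monocyte or macrophage list.

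UMIs were summed per hashtag sample and class (at least 20 cells, 10 for dendritic cells) and tested with edgeR 4.0.16 (quasi-likelihood, TMM, default low-count filter, hashtag block, adjusted p 0.05) in R 4.3.3. Counts of called genes leave out the gating markers and the gene that defined a split. Both sides of each comparison are cells of the same hashtag sample, which gives the pairing. CPM are UMIs per 1000000 of the class sum. Joint detection used exact sign-flip permutation tests (SciPy 1.17.1). In simulated counts for the macrophage and monocyte comparison over 7266 genes, 82.7% of 2-fold and 100% of 4-fold changes were called, and 0.0849% of unchanged genes. These counts were drawn with the same dispersion for every gene and no difference between hashtag samples. The rates therefore do not carry over to genes that vary more between samples, such as the members, or to the splits.

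The members, marker lists and pathway lists were chosen with earlier results of these data known. Named genes were up to 4 per list with the largest called changes and, outside the lists, the 6 highest and 6 lowest called genes changed alike in every sample with a mean of at least 50 CPM on a side. Genes like a member were the 5 with the highest Pearson r of log2(CPM + 1) over 50 sample-by-class sums. Alternatives were DESeq2 1.42.0, no filter, no block, stricter gates, another hashtag rule, no deep cells, other thinning and each sample left out.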

Additional observations from a re-analysis of the deposited data

Results flagged for a closer look

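In groups of 4 to 10 hashtag samples, a sample was singled out when its gap to the nearest other, divided by the range of the group, passed Dixon's 95% critical value. Chance alone does this in about 1 in 20 groups, and 5 of the 25 groups examined did so here. Arg1 in macrophages of sample 7 stood at 229 CPM where the next highest sample stood at 89.6, and Arg1 over the 3 gates of that sample at 171 CPM where the next stood at 83.4. The groups overlap, since the macrophages are part of the 3 gates. Nos2 in macrophages of sample 8 stood at 25.8 CPM where the next stood at 7.31, and over the 3 gates of that sample at 35.9 CPM where the next stood at 13.7. Il4i1 in neutrophils of sample 6 stood at 310.5 CPM where the next stood at 31.7, and its 36 UMIs lay in 1 cell. With sample 7 left out Arg1 stayed higher in macrophages than in monocytes, within the range given under the left-out samples.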

How the results depend on the processing

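Of 333 recomputed values, 302 were classed as unchanged, by loose rules. Fold changes had to keep their sign and, where an adjusted p was given, their side of the threshold. Levels, odds ratios and gene counts had to stay within a set margin. Some joint detection values were classed so without a rule. The Arg1 and Nos2 odds ratio of 0.798 with a sample left out is among the 302. Every alternative that gave a value kept the calls for Arg1 and Acod1 between macrophages and monocytes and for Acod1 against microglia. The last ran from -4.93 to -2.23 apart from left-out samples. Also kept were Arg1 and Il4i1 against microglia, the members against Krt8-gated cells and Il4i1 in mature dendritic cells. These entered the tests through the side where they were high, so their holding is no further support. Il4i1 against microglia had a value in 4 of 6 alternatives and 3 of 4 left-out fits. With samples left out, Arg1 between macrophages and monocytes ranged from 2.67 to 2.95 on the log2 scale and Acod1 from -1.41 to -1.07.

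The splits moved most. For the Arg1 split over samples 5 and 7, 124 genes passed, against 212 without deep cells, 188 with another thinning seed, 50 when a hashtag was called from at least 50 counts and 70% of a cell's hashtag counts, 9 with no replicate block and 8 with DESeq2. Of its 6 hypoxia and glycolysis genes 2 passed with DESeq2 and 1 with no block, and Nos2 turned to -1.11 (adjusted p 0.648) with another seed. Over samples 5 to 8, 94 genes became 207 with no filter, 52 with the macrophage list only and 11 with no block, and 43 to 103 with samples left out. There the 6 hypoxia and glycolysis genes became 0 with no block and 2 to 6 with samples left out, and Acod1 ranged from -0.043 to 0.20. For the Nos2 split 214 genes became 89 with DESeq2, 29 with no block and 86 to 181 with samples left out, and 11 hypoxia and glycolysis genes became 4 with no block. Acod1 was 0.85 (adjusted p 0.138) with no block. Arg1 ranged from 0.31 to 0.93 and Il4i1 from 0.55 to 2.69 with samples left out. With no filter Il4i1 was 1.57 (edgeR adjusted p 0.0133), in a fit that took little account of the spread between samples. The pairing by hashtag sample thus changed these calls and counts, and changed no call for a member in the class comparisons.

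Arg1 with Acod1 turned to -0.048 (exact p 0.875) at 1500 UMIs, and the Nos2 with Acod1 odds ratio was 11.1 there. DESeq2 called 215 genes in mature dendritic cells. The median of Acod1 in neutrophils moved from 1009 CPM to 2168 without deep cells and 2005 as a mean of per-cell values, that of Il4i1 in mature dendritic cells from 816 to 676 with stricter gates and in macrophages from 11.3 to 1.01 without deep cells. The causes were not tested. Leaving out samples was not possible for splits or dendritic cells with 2 samples, and stricter gates gave no value there or for joint detection. Depth limits Ido1, and Nos2 in most samples.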

Other observations

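Genes whose levels most resembled each member were taken over 50 sums of a hashtag sample and a class, among 14547 genes, as Pearson's r of log2(CPM + 1). The sums share libraries, and those of a class share their cell type, so r is a description. Arg1 was most like Cd300lb (0.865), 4930430E12Rik (0.865), Ms4a7 (0.835), Gdf3 (0.818) and Clec12a (0.811), of which Ms4a7 is a macrophage marker used in the gates. Acod1 was most like Il1rn, the interleukin-1 receptor antagonist (0.952), followed by Trim30b (0.950), Prdx5 (0.950), Pygl (0.947) and Lst1 (0.942). Il4i1 was most like H2-Eb2 (0.860), Mreg (0.798), Ccl22 (0.766), Flrt3 (0.752) and Etv3 (0.7497), of which Ccl22 is a mature dendritic cell marker used in the gates. Nos2 resembled its nearest genes less closely, Nampt at 0.731 and Chmp5, Slc30a1, Clic4 and Ift172 between 0.669 and 0.686. Ido1, with 11 UMIs in these sums, was given no such list.

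Endothelial cells with and without Plvap, a gene of fenestrated vessels, both held Nos2. A UMI was held by 5 of 43 Plvap-positive endothelial cells (11.6%, median depth 10531 UMIs) and by 36 of 350 Plvap-negative ones (10.3%, median depth 6129.5). The levels were 5.50 and 12.6 CPM, the first from 5 UMIs, and the difference was not tested. Neutrophils held Arg1 in few cells and Acod1 in many, 6 and 71 of 91 cells.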
